A study of Drosophila melanogaster with 3 samples.

Results

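The closely spaced reproducible peaks of CG16863 are sites on the fly genome where the tagged protein gave a pair or a short run of binding summits instead of a single one. They were chosen by the positions of the summits in the deposited set of reproducible peaks, the set left by the irreproducible discovery rate (IDR) procedure on the dm6 build. A peak is a member when at least 1 other summit of that set lies within 1000 bp on the same chromosome arm. Of 3953 reproducible peaks, 708 were members, or 17.9% (95% Wilson interval 16.7 to 19.1%), and the other 3245 are called isolated here. The spacing and the membership itself are therefore descriptions and carry no test. The members formed 343 clusters, of which 321 were pairs and 22 were triplets, and these hold 365 neighbouring pairs of summits.

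The data come from chromatin immunoprecipitation with sequencing (ChIP-seq) on whole Drosophila melanogaster embryos of mixed sex, 0 to 16 h old, from a transgenic line that stably expresses CG16863 with a GFP tag at its C-terminal end. An antibody against GFP pulled down the tagged protein, so the line reports the fusion protein and not the untagged one. The 3 samples are biological replicates of this 1 group, with no contrast between conditions. No control library was used here, so signal from sources other than the tagged protein cannot be told apart from its binding. In whole embryos, summits bound in the same nuclei and summits bound in different cells or at different ages cannot be told apart either.

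In ChIP-seq, sheared fragments that carry the protein pile up around a bound site, and the summit is the position where the pile is highest. A promoter is the stretch around a transcription start site (TSS) where RNA polymerase and its factors assemble. Promoters of active fly genes usually hold a stretch free of nucleosomes, and many of them are shared by neighbouring genes transcribed in opposite directions. Introns of developmental genes often hold enhancers, which are bound by several factors side by side. Fragments here were selected between 200 and 800 bp, per the labels, so summits closer than a fragment length are served in part by the same fragments.

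The genome sequence under 6 named clusters is shown first because the spacing, the base composition and the position against genes can be read from it. The 4 tight pairs are printed with the stretch between their summits, and for the 2 wide pairs a window of 101 bases around each summit is printed. All are on the forward strand of the reference, RefSeq's dm6 assembly, from the X, 3L and 3R arms. Capitals mark the 21 bases centred on each summit.
PGAP1 and cv, chrX:5689495-5689775: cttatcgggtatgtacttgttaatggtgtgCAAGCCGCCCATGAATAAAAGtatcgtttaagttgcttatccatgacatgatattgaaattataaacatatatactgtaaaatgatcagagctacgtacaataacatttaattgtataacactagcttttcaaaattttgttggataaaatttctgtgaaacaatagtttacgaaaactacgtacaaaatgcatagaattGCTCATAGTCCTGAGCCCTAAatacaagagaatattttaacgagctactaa
Axn, Mgat2 and RpS28a, chr3R:30022172-30022452: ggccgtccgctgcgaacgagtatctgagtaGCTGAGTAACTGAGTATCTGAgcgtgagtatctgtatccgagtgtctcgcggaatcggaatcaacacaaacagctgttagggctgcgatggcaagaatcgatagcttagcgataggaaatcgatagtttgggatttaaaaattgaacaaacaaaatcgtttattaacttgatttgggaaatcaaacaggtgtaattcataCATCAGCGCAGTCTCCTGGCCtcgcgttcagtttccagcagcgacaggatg
htk and shop, chrX:18848647-18848927: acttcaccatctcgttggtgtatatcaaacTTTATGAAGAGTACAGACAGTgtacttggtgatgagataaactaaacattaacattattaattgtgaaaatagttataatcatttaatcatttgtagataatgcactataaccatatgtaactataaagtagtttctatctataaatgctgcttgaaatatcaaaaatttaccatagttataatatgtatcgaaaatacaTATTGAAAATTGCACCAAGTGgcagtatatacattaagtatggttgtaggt
lncRNA:CR45411, chr3L:724605-724896: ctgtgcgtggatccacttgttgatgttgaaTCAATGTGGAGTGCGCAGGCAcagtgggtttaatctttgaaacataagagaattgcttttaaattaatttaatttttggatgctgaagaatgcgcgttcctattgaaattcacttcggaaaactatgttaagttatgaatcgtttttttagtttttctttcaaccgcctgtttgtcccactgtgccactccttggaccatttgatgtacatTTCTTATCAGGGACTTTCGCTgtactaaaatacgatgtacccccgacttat
lncRNA:CR44619 left summit, chrX:12751379-12751479: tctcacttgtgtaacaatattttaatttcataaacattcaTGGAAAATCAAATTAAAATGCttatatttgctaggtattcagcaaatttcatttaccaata
lncRNA:CR44619 right summit, chrX:12752298-12752398: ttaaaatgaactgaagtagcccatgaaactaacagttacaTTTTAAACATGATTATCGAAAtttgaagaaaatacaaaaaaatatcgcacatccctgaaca
CBP left summit, chrX:7336273-7336373: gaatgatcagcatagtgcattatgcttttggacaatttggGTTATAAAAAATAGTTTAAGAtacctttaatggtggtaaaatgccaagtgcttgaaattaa
CBP right summit, chrX:7337027-7337127: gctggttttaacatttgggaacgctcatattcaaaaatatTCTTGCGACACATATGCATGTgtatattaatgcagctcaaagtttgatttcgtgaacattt

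The printed tight pairs are 200, 200, 200 and 211 bp apart, in that order. The htk and shop stretch had the lowest GC content among them at 27.4%, the PGAP1 and cv stretch had 31.0%, the lncRNA:CR45411 stretch 38.4% and the Axn, Mgat2 and RpS28a stretch 45.6%. The windows of lncRNA:CR44619 had 23.8% and 28.7% GC, and those of CBP had 30.7% and 33.7%.

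The spacing of the members fell into separate ranges rather than spreading over the whole kilobase. In 202 of the 365 pairs the summits were 199 to 382 bp apart, with a median of 204 bp, and these are called tight. The other 163 pairs were 462 to 998 bp apart, with a median of 801 bp, and are called wide. A limit of 450 bp between them was set after the distances were seen. Only 4 pairs lay from 350 bp to under 550 bp. By their nearest neighbour, 404 of the members were tight and 304 were wide.

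The tight range was itself narrow. In 104 pairs the summits were 199 to 204 bp apart, in 52 pairs 205 to 214 bp, in 27 pairs 215 to 249 bp and in 19 pairs 250 bp or more. None of the lists examined held a pair closer than 199 bp. These were the reproducible set, the relaxed list of the pooled replicates, the relaxed list of each replicate and the reproducible set on the dm3 build. The peak intervals of 197 of the 202 tight pairs overlapped, by a median of 218 bp over all tight pairs, and those of none of the 163 wide pairs did. Median interval width was 430 bp in the tight, the wide and the isolated peaks alike. Exactly this width was held by 316 of 404 tight, 253 of 304 wide and 2782 of 3245 isolated peaks. Whether intervals overlap is therefore largely set by the spacing that defines tight and wide, and is not a separate trait. How much of the sharp lower edge comes from the peak caller was not tested.

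**Figure D1:**
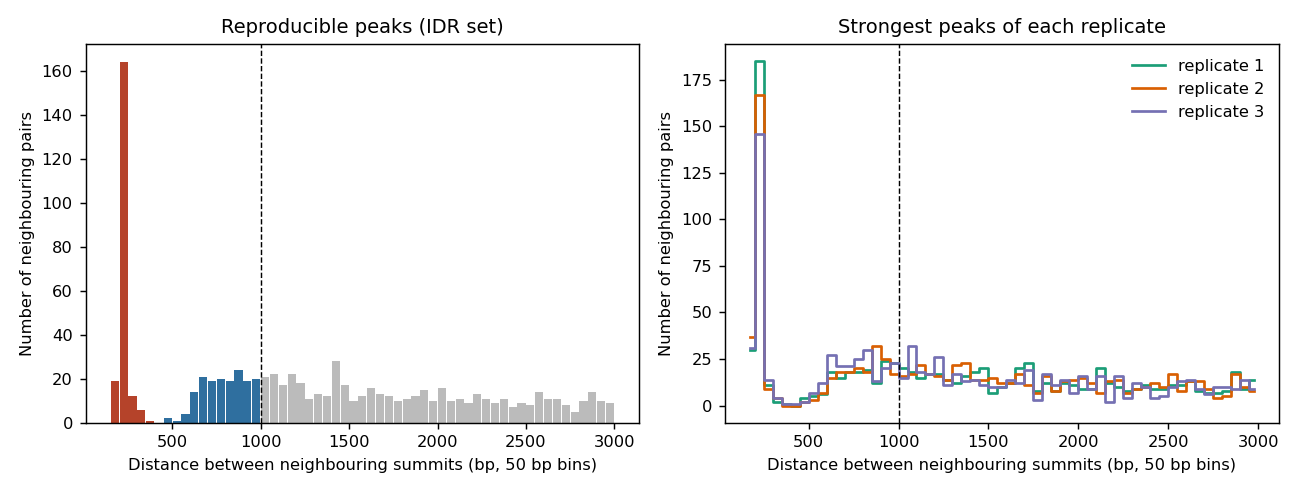
Number of neighbouring summit pairs (vertical) by the distance between them in bp (horizontal, bins of 50 bp), for the reproducible peaks on the left and for the strongest peaks of each replicate on the right. Red bars are tight pairs, blue bars wide pairs, grey bars pairs past the limit of 1000 bp drawn as a dashed line, and the 4 bins from 350 to 550 bp hold 4 pairs in all.

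The same 2 ranges were present in each replicate when the rule was applied to its own 3953 strongest peaks. Members made up 19.0% of the list in replicate 1, 19.0% in replicate 2 and 19.3% in replicate 3, a mean of 19.1% ± 0.168 (SD, n = 3). Pairs under 350 bp made up 58.3%, 55.1% and 49.0% of the pairs, or 54.1% ± 4.73 (SD, n = 3). Pairs from 350 bp to under 550 bp made up 2.20% ± 0.810 (SD, n = 3). The lists share most of their sites, so this is repetition over libraries and not over places in the genome. The ranges were not particular to the reproducible or strongest peaks. In the relaxed list of the pooled replicates, pairs under 350 bp made up 44.4% of the pairs within 1000 bp. Pairs from 350 bp to under 550 bp made up 3.48% there. In the whole relaxed lists of replicates 1 to 3 the shares were 44.1%, 43.9% and 38.7%, and 3.75%, 4.50% and 5.04%.

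Membership at a given site carried over between replicates in part. Of the close peaks of 1 replicate that were found within 100 bp in the list of another, 67.7 to 72.4% were close there too, over the ordered pairs of replicates. Of the isolated peaks that were found again, 6.29 to 7.24% were close in the other list. Of the tight members, 64.4 to 69.3% were found in the other list, and 56.9 to 63.5% of those found were again tight. Of the wide members, 67.6 to 75.9% were found, and 65.5 to 76.2% of those found were again wide. The threshold of the set enters this count, since 1348 of the 3245 isolated peaks (41.5%) had another summit within 1000 bp in the relaxed list of the pooled replicates.

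At the limit of the rule the values change without a step. There were 20 pairs in the last 50 bp inside it and 21 pairs in the first 50 bp outside it. Just inside lay the pairs at side-IV (998 bp, pooled signal 151 and 166) and at if, which encodes an integrin alpha subunit (997 bp, 160 and 180). Just outside lay the pairs at RhoGAP18B (1004 bp, 398 and 132) and at lncRNA:CR45643 (1005 bp, 121 and 740). Both lncRNA:CR45643 summits are still members through another neighbour, the left one in a wide pair and the right one in a tight pair. The 1005 bp there is thus the gap between separate clusters.

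Heights are given as relative signal, which is the signal of the replicate's highest relaxed peak within 100 bp of the reproducible summit, divided by that replicate's median over all 3953 reproducible peaks. A value of 1 is thus the height of a middling reproducible peak. A summit with no such peak in a replicate counted as 0 in these medians and in the ranking of clusters by their second summit. The values given for single summits leave that replicate out. The median of the close peaks was 1.06, 1.05 and 1.05 in replicates 1 to 3, or 1.05 ± 0.00683 (SD, n = 3). The median of the isolated peaks was 0.990 ± 0.00347 (SD, n = 3). The close peaks were slightly higher in each replicate, by 0.0615 ± 0.00829 (SD, n = 3), with medians of 1.08 ± 0.0194 for tight and 1.03 ± 0.0112 for wide members. The difference became 0.180 with matches within 200 bp, a window that can reach the other summit of a tight pair. It became 0.0310 with tight summits merged and 0.480 with 1 summit per cluster, which keeps the highest. Pooled signal chose the set, so this is given with no test. The highest peak of the whole set, at a pooled signal of 6548, was isolated, and the highest close peak stood at 3556.

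The clusters with the highest second summit show how far a companion summit can reach. At lncRNA:CR44619, a long noncoding RNA on the X, the summits lay 919 bp apart at -438 and 481 bp from its start, where negative positions are upstream. The left summit had a relative signal of 7.72, 8.87 and 9.11 in replicates 1 to 3. The right one had 7.02, 6.20 and 7.66. The left was higher in each replicate, with means of 8.57 ± 0.743 and 6.96 ± 0.732 (SD, n = 3). At CBP, which encodes a calcium-binding protein, the order was the other way. The left summit, at -1029 bp from the CBP start and inside an intron of an overlapping gene, had 2.48, 2.96 and 3.06. The right summit, at -275 bp, had 4.36, 4.47 and 4.73, above every value of the left one. CG42327 also had its higher summit on the right. It had 2.06, 2.01 and 2.20 at -100 bp from the start and 2.76, 2.89 and 2.83 inside its intron, 764 bp away, and these values did not overlap.

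The tight pairs at PGAP1, Axn and htk lie at or between the starts of neighbouring genes, and their left summit had the higher mean and was the higher one in each replicate. PGAP1 encodes an enzyme that remodels lipid-anchored proteins, and cv (crossveinless) shapes the cross veins of the wing. The left summit of this pair, at -62 bp from the PGAP1 start, had 4.76, 6.16 and 5.32, and the right one, at -262 bp, had 2.55, 3.25 and 1.87. The groups of values did not overlap. At Axn, which encodes the Axin scaffold of the complex that degrades beta-catenin, the neighbouring starts are those of Mgat2, an enzyme of N-glycan synthesis, and of RpS28a, a ribosomal protein gene. The left summit there had 3.20, 5.43 and 3.81 and the right one 2.64, 3.44 and 0.713, so the ranges overlapped although the left was higher in each replicate. The pair at htk and shop had 3.05, 3.51 and 2.28 on the left and 1.95, 3.02 and 1.53 on the right. At lncRNA:CR45411, whose start, the nearest one, lay at a distance that puts the summits at -10115 and -10326 bp, the left summit was matched in replicates 2 and 3 only, at 3.08 and 2.93, and the right one had 3.43, 1.94 and 2.03.

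**Figure D2:**
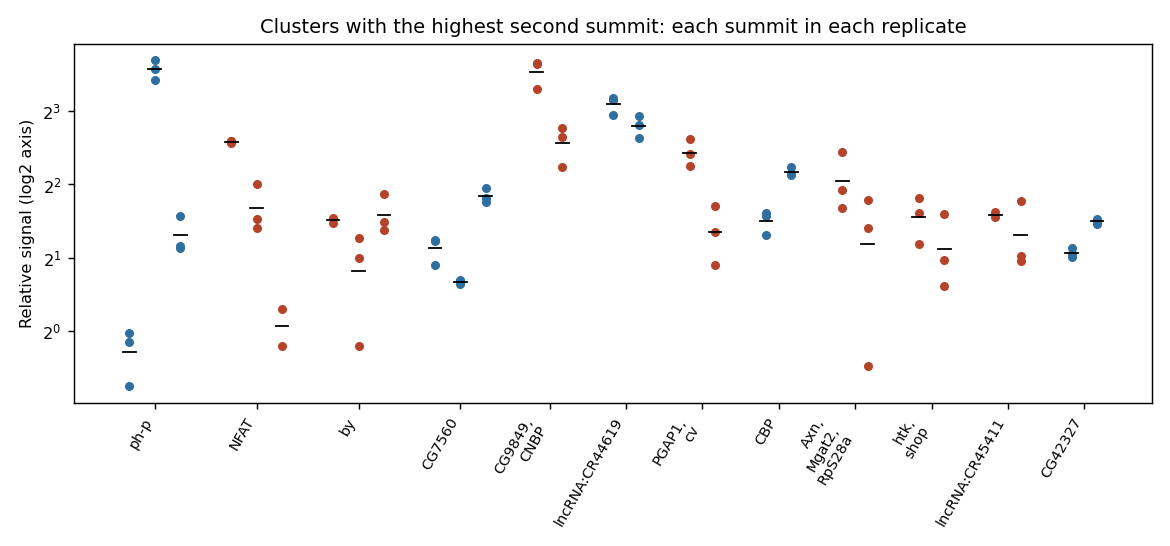
Relative signal (vertical, log2 axis) of each summit in the 12 clusters with the highest second summit, with summits in genome order within a cluster and clusters named by the genes nearest to them. Points are replicates, short lines their mean over the replicates in which the summit was found, red marks clusters that hold a tight pair and blue those with wide pairs only, and the ph-p cluster shows the steepest contrast, 0.820 against 11.9.

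The triplets include some of the strongest sites. At ph-p, which encodes polyhomeotic proximal, a core subunit of Polycomb repressive complex 1, the middle summit had a relative signal of 11.9, 10.8 and 13.0. The left summit, 805 bp away, had 0.896, 0.589 and 0.974, and the right one, 627 bp away, had 2.23, 2.98 and 2.19. These ranges were far apart in every replicate. The tandem copy ph-d lies beside ph-p and shares sequence with it, and the sources used here do not say how reads that match both were placed. At NFAT, the fly relative of the calcium-regulated NFAT factors, the first summit had 5.90, 6.03 and 6.05 and the second 2.88, 2.65 and 4.02, and the third, 202 bp past the second, had 1.23 and 0.866 in the replicates where it was found. The summits at by, the tensin gene, were 2.79 and 2.91 in 2 replicates for the first, 0.867, 2.40 and 1.99 for the second and 2.59, 2.79 and 3.64 for the third. The triplet nearest to CG7560 lay at -8213, -7593 and -6676 bp from its start, in no annotated gene, with 2.37, 1.86 and 2.35, then 1.56, 1.60 and 1.62, then 3.40, 3.51 and 3.85. Of the 22 triplets, 15 joined a tight pair to a wide one, 7 held wide pairs only and 0 held tight pairs only.

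The remaining triplets named here follow the same build. At Lrch, a tight pair with means of 2.72 ± 0.498 (SD, n = 3) for its left summit and 1.59 and 1.10 in 2 replicates for its right one lay 904 bp from another summit of 1.51 ± 0.397 (SD, n = 3). At E(spl)m3-HLH, a Notch target gene that encodes a bHLH repressor, the tight pair had 2.57 ± 0.790 and 1.82 ± 0.743 and the lone summit 0.568 ± 0.475 (SD, n = 3 each). Another triplet lay at Keap1, the sensor of oxidative stress, and kuk, a gene for a protein of the nuclear envelope. Its lone summit, at -54 bp from the Keap1 start, had 0.750 ± 0.267 (SD, n = 3). Its tight pair lay in an intron of kuk. The left member of that pair had 2.77 and 2.82 in 2 replicates, and the right one had 1.87 ± 0.319 (SD, n = 3). On the 2R arm, the triplets lay at Drat, at mlt within the potassium channel gene KCNQ, and at bin3, whose product modifies the 7SK RNA. Their highest summits had 5.11 ± 0.821, 3.40 ± 0.0773 and 2.14 ± 0.319 (SD, n = 3 each). The highest tight pair of all by its second summit was also on 2R, at CG9849 and CNBP, with 9.90, 12.5 and 12.6 on the left and 4.74, 6.84 and 6.28 on the right.

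Pairs were usually seen as pairs in the relaxed list of a single replicate as well. They come from the reproducible set of these same replicates pooled, so finding them again is in part built in. A pair counts as resolved when each of its summits has its own relaxed peak within 100 bp. In replicates 1 to 3, 81.7%, 83.2% and 80.2% of the 202 tight pairs were resolved, and 92.0%, 98.2% and 93.9% of the 163 wide pairs. The tight pairs were resolved less often in each replicate, at 81.7% ± 1.49 against 94.7% ± 3.15 (SD, n = 3). All 3 replicates resolved 113 of the tight pairs and 140 of the wide ones, and 4 tight pairs and 0 wide pairs were resolved in none. Over all pairs the mean share resolved was 87.5%, and it was 64.1% when only the strongest peaks of a replicate counted. The spacing measured in a replicate differed from the pooled spacing by a median of 4 to 5 bp in tight pairs and 20.5 to 27 bp in wide pairs. No list held a pair under 199 bp, and 104 of the 202 tight pairs lay at 199 to 204 bp. Tight spacings therefore had little room to differ, and these medians do not compare how precisely the summits are placed.

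The summits of a pair differed in height to varying degrees. The higher summit had a median of 1.70 times the pooled signal of the lower one in tight pairs and 1.41 times in wide pairs. This ratio cannot fall below 1, and it was under 1.5 in 84 of 202 tight and 91 of 163 wide pairs. Of the pairs resolved in 3 replicates, the mean log2 ratio of the members over the replicates was more than 2 of its SDs from 0 in 72 of 113 tight pairs and 59 of 140 wide pairs. Among the pairs resolved in 3 replicates, the same member was the higher one each time in 101 of 113 tight pairs (89.4%, 95% Wilson interval 82.4 to 93.8%) and in 90 of 140 wide pairs (64.3%, 56.1 to 71.7%). In the replicate lists the left summit was higher in 95.2%, 96.8% and 97.0% of tight pairs, against 46.3%, 52.0% and 53.7% of wide pairs. The agreement in tight pairs is thus not separate from this side, and it does not measure a height order of each site. As a description across pairs, the Spearman correlation of the left with the right pooled signal was 0.52 over the 202 tight pairs and 0.03 over the 163 wide pairs. Overlapping intervals share fragments, and the part of this in the tight value was not tested.

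Which member was higher followed the coordinate in tight pairs and did not in wide pairs. The left summit, the one with the lower coordinate, was higher in 194 of 202 tight pairs (96.0%, 95% Wilson interval 92.4 to 98.0%) and in 84 of 163 wide pairs (51.5%, 43.9 to 59.1%). It was higher in 137 of 137 pairs at 199 to 209 bp, in 45 of 46 pairs at 210 to 249 bp and in 12 of 19 pairs at 250 bp or more. In the lists of the replicates the left summit was higher in 95.2%, 96.8% and 97.0% of tight pairs, 96.3% ± 0.967 (SD, n = 3), an exact two-sided sign-flip permutation test against an even split giving p = 0.25. That is the smallest p that 3 replicates allow, for this and for each sign-flip test here. In wide pairs the share was 50.7% ± 3.89 (SD, n = 3), with an exact p of 0.75 by the same test.

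The side did not depend on which way the nearest gene was read. Among tight pairs with a promoter summit, the left summit was higher in 63 of 66 where the nearest start lay on the plus strand and in 72 of 75 where it lay on the minus strand. Read along the gene instead, the upstream summit was the higher one in 66 of 141 tight promoter pairs (46.8%, 95% Wilson interval 38.8 to 55.0%). The left summit was also higher in 94.7% of the 190 tight pairs of the dm3 set and in 85.3% of the 2672 tight pairs of the relaxed pooled list. The part of the peak caller in this was not tested.

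**Figure D3:**
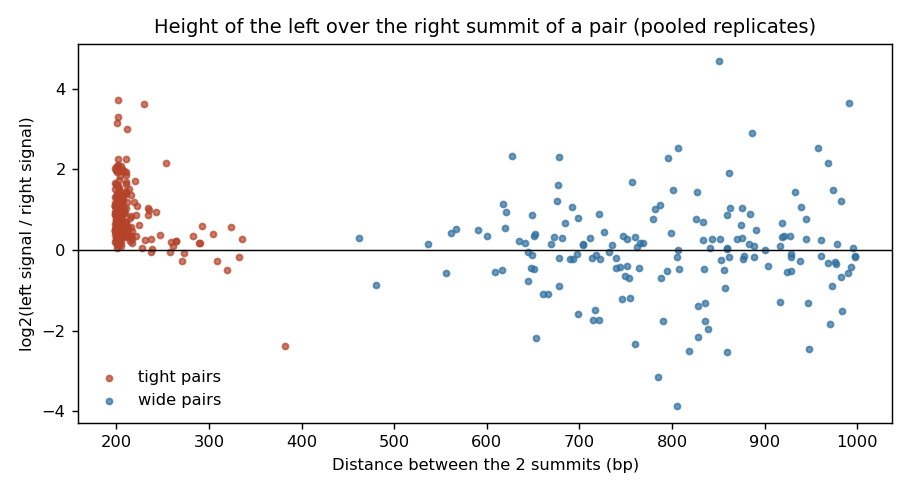
Distance between the summits of a pair in bp (horizontal) against log2 of the left over the right pooled signal (vertical), 1 point per pair, red for tight and blue for wide pairs. Of the tight pairs, 194 of 202 lie above the line of equal height, and of the wide pairs 84 of 163.

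Tight pairs framed a stretch rich in A and T. In windows of 51 bp the mean GC content was 44.1% at 100 bp to the left of the left summit, 34.8% at the left summit, 32.4% at the midpoint, 39.5% at the right summit and 44.4% at 100 bp to the right of the right summit. It was thus lowest between the summits and nearly equal on the flanks. In windows of 25 bp counted from the left summit, GC content was 34.0% at the summit, 31.6% at 50 bp to the right, 33.1% at 150 bp to the right and 39.5% at 200 bp to the right. Around isolated summits there was a single dip at the summit, with 35.3% there, 39.6% at 100 bp to the left and 40.8% at 100 bp to the right. Wide members had a dip like that of isolated peaks, with 36.2% at the summit, 41.5% at 100 bp to the left and 40.6% at 100 bp to the right. These are means over the sites of 1 set of peaks, given with no test.

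**Figure D4:**
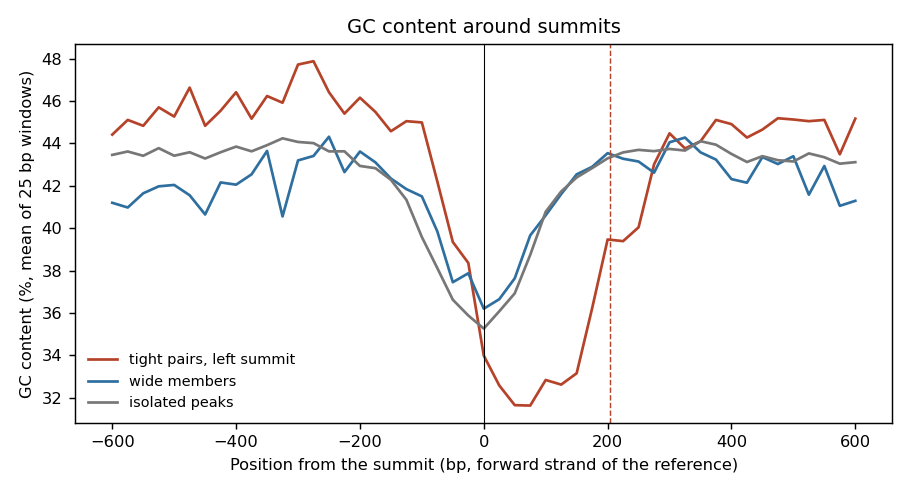
Mean GC content in percent (vertical, windows of 25 bp) by position in bp from the summit on the forward strand (horizontal), for the left summits of the 202 tight pairs in red, the 304 wide members in blue and the 3245 isolated peaks in grey. The dashed line marks the median place of the right summit of tight pairs, and the red dip, which lies to the right because the pairs are drawn from their left summit, spans the stretch between the summits, with 31.6% at 50 bp.

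Promoters held more of the tight members and fewer of the wide ones than of the isolated peaks. A summit within 500 bp of an annotated TSS was counted as promoter, and the rule does not use this. In the reproducible set 54.4% of the close peaks were at promoters (385 of 708) against 49.3% of the isolated ones. This is the mean of opposite parts, 62.9% in tight members and 43.1% in wide members. In the lists of the replicates the close share was above the isolated share by 7.49, 3.18 and 4.61 percentage points, 5.09 ± 2.20 (SD, n = 3, exact sign-flip permutation p = 0.25). That difference turned to -3.85 points with a TSS window of 200 bp, to -1.77 points with a spacing limit of 2000 bp and to -7.46 points when summits under 450 bp apart were merged into the higher one.

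The split by spacing was larger than the spread of the replicates. Tight members exceeded wide ones by 22.9, 20.1 and 22.0 points in promoter share, 21.7 ± 1.42 (SD, n = 3), and isolated peaks by 14.5 ± 2.49 points. Wide minus isolated was -6.46, -8.42 and -6.64 points, or -7.17 ± 1.08 (SD, n = 3). Introns showed the reverse order. They held 93 of 404 tight members, 138 of 304 wide members (45.4%) and 34.5% of isolated peaks in the reproducible set. Tight minus wide was -18.9 ± 1.39 points and wide minus isolated was 10.4 ± 2.77 points over the replicates. Intergenic shares were lower in close than in isolated peaks, with a difference of -4.34 ± 0.915 points (SD, n = 3). The exact sign-flip permutation p was 0.25 for each of these, and the lowest value after Benjamini-Hochberg adjustment over the 12 feature comparisons was 0.273. The members of a cluster share a place, so peaks were not counted as replicates.

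**Figure D5:**
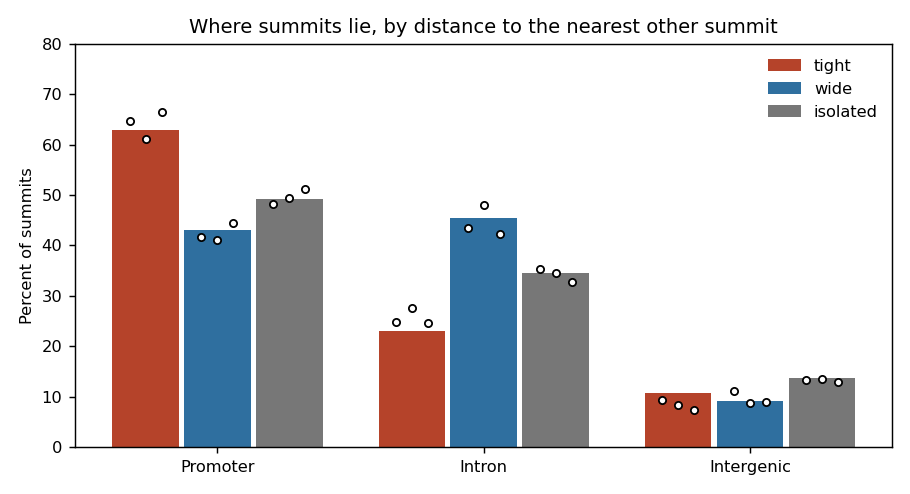
Percent of summits (vertical) within 500 bp of a TSS, in an intron or between genes, for tight members, wide members and isolated peaks. Bars are the reproducible set and open circles the strongest peaks of replicates 1 to 3 from left to right, and in each replicate the promoter share is highest for tight and lowest for wide members, with 62.9% and 43.1% in the reproducible set.

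Tight and wide pairs also sat differently against the start site. Of the tight pairs, 113 of 202 had both summits at a promoter, and of the wide pairs 44 of 163 had. Summits that are farther apart are less easily within 500 bp of a start together, so the spacing enters these counts. A start lay between the summits in 26 tight pairs (12.9%, 95% Wilson interval 8.94 to 18.2%) and in 63 wide pairs (38.7%, 31.5 to 46.3%), a count in which the longer span of wide pairs leaves more room for a start. Of the 141 tight pairs with a promoter summit, 110 had both summits upstream of the nearest start. Over all 141, the more upstream summit had a median position of -308 bp and the more downstream one of -85 bp. The 100 wide pairs with a promoter summit had their summits at medians of -293.5 and 454 bp, with 40 of them on opposite sides of the start. Start sites on both strands lay within 500 bp of 42.5% of tight promoter summits, 17.6% of wide ones and 39.2% of isolated ones.

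Gene groups with a role in the embryo were counted for members, beside the 17.9% of all reproducible peaks that were close. The lists count the summits inside a gene or within 1000 bp of it, and 53 of the 242 summits at the 11 lists were close. For the Polycomb and trithorax groups, which keep genes silent or active through development, 15 of 30 summits were close, 5 of them at ph-p. For the Notch pathway, 9 of 22 were close. The share was 7 of 28 for the Dpp and TGF-beta pathway, all tight, and 8 of 44 for the EGFR and Ras pathway. It was 4 of 26 for the Wnt pathway, 4 of 18 for the forkhead factors, 2 of 10 each for the pair-rule and segment polarity genes and for the insulator proteins, and 2 of 32 for the ecdysone response. None of 18 summits at Hox genes and their cofactors was close. By the approximation of 3 over the number of summits, this allows a share of up to 16.7%. None of 4 at gap and maternal genes was close, and 4 summits are too few for that approximation. The counts are small and several summits come from 1 gene, so the lists are described and nothing is read from their order.

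Of the members at genes of the Polycomb and trithorax list, 4 of 15 were tight, beside 404 of all 708 members. It was 2 of 9 for the Notch list and 2 of 2 for the insulator list. Many of the wide ones come from few genes, with 5 at ph-p and 4 each at Trl and mam. Trl encodes the GAGA factor, which opens chromatin at promoters. It held pairs 982 and 886 bp apart, and its highest summit, in an intron, had 5.30, 6.40 and 5.17 against 0.435, 1.09 and 0.765 for its neighbour. Cp190, an insulator protein gene, had a tight pair at its promoter with 3.24, 2.47 and 1.69 on the left. At mam, which encodes the Notch coactivator Mastermind, a pair 718 bp apart in an intron had nearly equal heights, with 1.96, 1.83 and 1.70 on the left and 2.01, 1.81 and 1.71 on the right. The replicates did not agree on which of these was higher. A second mam pair, 883 bp apart, had pooled signals of 155 and 139.

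At genes of the signalling lists both kinds occurred. The tight pair at smo, the transducer of Hedgehog signalling, had 3.27, 3.61 and 3.29 at -212 bp from the start and 0.308, 1.29 and 1.42 at -2 bp. The upstream summit was higher in each replicate without overlap. It is also the left one, and the left summit was higher in 194 of 202 tight pairs, whichever way the gene was read. At gro, the Groucho corepressor, the summits lay 836 bp apart, both near annotated starts, and the right one was higher, with 3.74, 3.49 and 3.64 against 1.43, 1.38 and 1.35. Dad, an inhibitory Smad, had an intronic tight pair with 2.50, 2.45 and 2.69 against 1.56, 0.962 and 1.16. Hr4, a nuclear receptor of the ecdysone response, had an intronic wide pair with 3.20, 4.07 and 3.72 against 0.789, 0.355 and 0.799. In these 3 genes the values of the summits did not overlap. Raf, the kinase below Ras, held a tight pair past its start, with 3.43, 3.14 and 3.52 for the left summit. A wide member of another cluster lay upstream of Raf, with 0.823, 0.559 and 0.884. At aop, which encodes the ETS repressor Yan, replicate 2 had no matching peak for either summit of the tight pair, while a wide member of another cluster near aop had 1.09, 1.20 and 1.18. The tight pair at brk, a repressor of Dpp targets, had 2.16, 1.68 and 1.93 on the left. The forkhead genes jumu and CHES-1-like held pairs 651 and 669 bp apart with pooled signals from 131 to 181.

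The share of tight and of wide members differed between the X and the autosomes in opposite directions, while the close share as a whole was 18.1% on the X and 17.9% on the autosomes. Tight members made up 6.67% of X peaks (50 of 750) and 11.1% of autosomal ones (354 of 3203). Wide members made up 11.5% of X peaks and 6.81% of autosomal ones. In the replicates the X was lower for tight members, with differences of -2.50, -2.96 and -3.89 points, or -3.12 ± 0.708 (SD, n = 3), and higher for wide members by 5.05, 3.28 and 4.85 points, 4.39 ± 0.974 (SD, n = 3). Both had an exact sign-flip permutation p of 0.25. This comparison was chosen after the values by arm were seen.

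Short motifs were searched by exact match on either strand in the 101 bp around each summit. No motif among the 15 differed between close and isolated peaks by more than 1.22 points in the mean over the replicates. The GAGA repeat GAGAGAG, the kind of sequence the GAGA factor binds, was in 2.26% of close and 1.36% of isolated windows of the reproducible set. In the replicate lists it was in 2.82% and 1.60%, a difference of 1.22 ± 0.511 points (SD, n = 3). The CA repeat CACACACA was in 2.26% and 1.20% of the windows of the reproducible set, and in 2.38% and 1.31% of those of the replicate lists, a difference of 1.06 ± 0.467 points (SD, n = 3). The motif TATCGATA of the DNA replication-related element, every copy of which also contains the BEAF-32 letters CGATA, was in 9 of 404 tight windows (2.23%), in none of 304 wide windows, which allows a share of up to 0.987%, and in 80 of 3245 isolated windows (2.47%). Tight exceeded wide by 1.43 ± 0.161 points over the replicates for it. Of the differences between tight and wide members in the replicate lists, the largest among the 15 motifs was that of CGATA, 3.54 ± 3.09 points (SD, n = 3). The A tract AAAAAAAA was in 8.42% of tight, 3.62% of wide and 7.33% of isolated windows of the reproducible set. For it, tight exceeded wide by 1.52 ± 1.16 points in the replicate lists (SD, n = 3). The letters CGATA were in 18.1% of tight, 15.5% of wide and 17.0% of isolated windows, the TATA letters TATAAA in 17.3%, 16.4% and 17.6%, and the forkhead letters TAAACA in 16.6%, 13.8% and 14.7%. Among the printed windows of 101 bases, the right summit of lncRNA:CR44619 holds CGATA, and the left summit of CBP holds TATAAA. GC content of these windows was 37.0% in close and 35.9% in isolated peaks, and close exceeded isolated by 1.08 ± 0.208 points over the replicate lists (SD, n = 3). Each of the 32 comparisons had an exact sign-flip permutation p of 0.25 or more, and the lowest adjusted value was 0.471.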

How the data were processed

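ChIP-seq peak lists of 3 biological replicates of CG16863-GFP embryos were used. Per the labels, the authors deposited them on dm6 and dm3: a relaxed list per replicate, a relaxed pooled list and the reproducible (IDR) set. The labels and headers used here name no aligner, peak caller, IDR setting or read depth. For that reason no interval from read counts is given, and Wilson intervals cover the counting of peaks only. Height is the deposited signal value of a peak. The deposited −log10 q value was not used in a result. The summit is the interval start plus the deposited offset, given 1-based. The IDR set was the 3953 pooled peaks with a signal of at least 108.6.

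Starts and features came from Ensembl release 115 with 18164 genes on 6 arms, and sequence from RefSeq, both in dm6 coordinates. A summit beyond 500 bp of any TSS was placed, in this order of priority, in a UTR, an exon, an intron or between genes. The rule was applied again to the 3953 strongest relaxed peaks of each replicate (24378, 30000 and 29769 peaks in all), differences were taken once per replicate, and these were tested with an exact sign-flip permutation test. Such p-values measure the spread between these 3 samples. A replicate's own peak was matched within 100 bp.

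The members, gene lists, motifs and tests were chosen with earlier results of these data known, and the split at 450 bp, the sides of a pair and the X were added after seeing the data. Named clusters are the 10 with most summits and the 12 with the highest second summit, ties by signal, and up to 2 genes per list with the most close summits. The scripts (Python 3.11.15, numpy 2.4.6, pandas 2.3.3, scipy 1.17.1) were tested on simulated peak lists. Alternatives changed the spacing limit, TSS window, match distance, list length, build and replicates.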

Additional observations from a re-analysis of the deposited data

How the results depend on the processing

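The promoter excess of close over isolated peaks depended on the processing. In the reproducible set it was 5.07 points, while a TSS window of 200 bp gave -4.19 points, and it was -3.18 points with a spacing limit of 2000 bp and -6.90 points with summits under 450 bp apart merged, against 13.0 points with a window of 1000 bp and 14.0 points with a limit of 500 bp. In the replicate lists it was -3.85, -1.77 and -7.46 points under the first 3 of these, and 3.89 to 6.05 points with each replicate left out in turn. The close share of 17.9% became 10.3% with a limit of 500 bp, 30.3% with 2000 bp, 10.6% for peaks at or above the median signal and 8.13% with tight summits merged. In the replicate lists it was 11.7% among the 2000 strongest peaks. The height difference of 0.0615 became 0.0448 and 0.180 with matches within 50 and 200 bp, 0.0811 and 0.0699 with limits of 500 and 2000 bp, 0.0310 with tight summits merged, and 0.480 with 1 summit per cluster, which keeps the highest by construction. The share of pairs resolved, 87.5%, became 74.8% and 74.4% with matches within 50 and 200 bp and 64.1% among the strongest peaks. Matching takes the highest peak in its window, and a window of 200 bp can reach the other summit of a tight pair. The lower summit can then receive the height of the higher one, and such a pair counts as unresolved. How much of the values 0.180 and 74.4% comes from this was not tested. The share of pairs with a start between the summits, 24.4%, became 13.2% with a limit of 500 bp and 35.5% with 2000 bp, as the spans allow. The promoter excess of tight over wide members ran from 11.7 points (window of 200 bp) to 29.8 points (2000 strongest peaks) and kept its sign under every alternative run. Where no cause is named it was not tested. The 3 replicates cannot give a p below 0.25, and the sources used here give no read depth, so how it limits the weaker member of a pair is unknown. No paired analysis was possible because there is 1 group.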
